A study of Mus musculus with 6 samples.

Results

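Antioxidant and glutathione genes are followed here in inguinal white adipose tissue (iWAT) with and without adipocyte Cebpa, the gene of the transcription factor C/EBPα. The genes are Nqo1, Hmox1, Gclc, Gclm, Txnrd1, Srxn1, Gsta3, Gsta4, Gstm1 and Cat, chosen by name for their textbook roles. They are 10 of the 36144 gene symbols in the deposited table, and all 10 were among the 16069 genes with enough counts to be tested. Earlier results of these data were known when the genes were chosen, so their shares beside those of all genes are a description. RNA came from whole iWAT of 6 female mice aged 10 weeks on the C57BL6/J background, which had free access to food, with the 2 depots of a mouse extracted together after the lymph nodes had been taken out. The 3 Cebpa_ASKO mice carry floxed Cebpa and the AdipoQ-Cre transgene, and the 3 Cebpa_fl/fl mice carry floxed Cebpa without Cre. Cre from AdipoQ-Cre acts in cells that express adiponectin, so vessels, immune cells and fibroblasts that do not express it should keep Cebpa. Cebpa was not measured by cell type in this whole tissue. Each library is 1 mouse, and the labels put all 6 in batch 1.

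Cells remove hydrogen peroxide with catalase and with peroxidases that draw on glutathione or thioredoxin, and they couple reactive lipid products to glutathione with glutathione S-transferases. Many of these genes are targets of the transcription factor NRF2, which is held low by KEAP1 and binds antioxidant response elements in promoters. In fat cells this chemistry deals with peroxide from fatty acid oxidation in peroxisomes and with aldehydes from oxidised lipids.

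Total estimated counts were 46237121, 46601320 and 49477671 in Cebpa_fl/fl 1, 2 and 3, and 33141769, 37957065 and 42243013 in Cebpa_ASKO 1, 2 and 3. Levels are given in TPM, a transcript's share of its library corrected for transcript length and scaled to the same total in each library, in the order of replicates 1, 2 and 3. Cebpa, on chromosome 7 from 35119293 to 35121928 of GRCm38, was at 204, 238 and 243 TPM in Cebpa_fl/fl and at 17.3, 23.9 and 20.1 TPM in Cebpa_ASKO. The groups did not overlap, and the Cebpa_ASKO mean was 8.94% of the Cebpa_fl/fl mean in TPM.

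Several libraries stood apart in markers of other cell types. The 14 lymphocyte markers summed to 486, 118 and 69.9 TPM in Cebpa_fl/fl and to 72.2, 74.1 and 103 TPM in Cebpa_ASKO, so Cebpa_fl/fl 1 was far above the rest. The 15 macrophage markers summed to 1633, 3343 and 1145 TPM in Cebpa_fl/fl and to 1773, 2014 and 2947 TPM in Cebpa_ASKO, highest in Cebpa_fl/fl 2 and Cebpa_ASKO 3. The 15 skeletal muscle markers summed to 546, 921 and 623 TPM in Cebpa_fl/fl and to 2442, 5419 and 1966 TPM in Cebpa_ASKO, with Cebpa_ASKO 2 highest. In bulk tissue, fewer cells of a type and less RNA per cell cannot be told apart, and this holds for every level below.

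Of the 10 genes, 3 passed the test, which was edgeR's quasi-likelihood test with the p adjusted over the whole table and a threshold of 0.05. Among all genes tested the share that passed was 5.23% (840 of 16069). Srxn1 was the 1 gene that rose in Cebpa_ASKO, against 1.39% of all genes (223), and Gsta3 and Cat were the 2 that fell, against 3.84% (617). Of the 10 genes 6 had an unadjusted p below 0.05, against 19.8% of all genes tested (3185), and DESeq2 called 3, against 10.2% of the 17585 genes to which it gave an adjusted p (1802). Estimates for the 7 others were higher in Cebpa_ASKO for 5 and lower for 2. In 5 of the 10 genes the libraries of the genotypes did not overlap in CPM, counts scaled to a common library size with TMM factors, against 26.1% of all genes tested (4201). The median log2 fold change of the 10 genes was 0.14, against 0.02 for all genes tested, and the median absolute log2 fold change was 0.41 against 0.19. Without Cebpa_ASKO 1 the count of called genes among the 10 was 1, and without both Cebpa_fl/fl 1 and Cebpa_ASKO 2 it was also 1, Gsta3 in each case. The count over all genes was 311 without Cebpa_ASKO 1, 363 without Cebpa_ASKO 2, 724 without Cebpa_ASKO 3, 508 without Cebpa_fl/fl 1, 922 without Cebpa_fl/fl 2 and 502 without Cebpa_fl/fl 3.

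**Figure D1:**
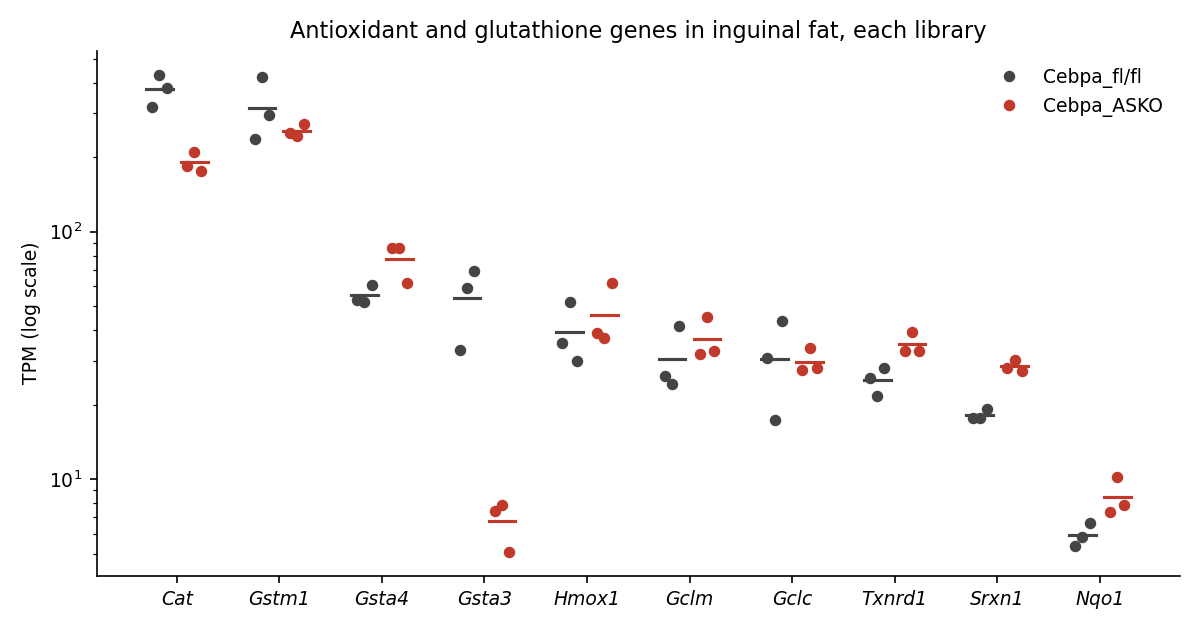
Expression of the 10 antioxidant and glutathione genes in TPM on a log axis, with 1 point for each library, a bar at the mean of 3, and Cebpa_fl/fl in grey and Cebpa_ASKO in red. Gsta3 stands at 33.2 to 69.2 TPM in Cebpa_fl/fl and at 5.08 to 7.85 TPM in Cebpa_ASKO, while Srxn1 lies at 17.6 to 19.2 TPM and at 27.3 to 30.4 TPM.

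By mean TPM in Cebpa_fl/fl the order was Cat, Gstm1, Gsta4, Gsta3, Hmox1, Gclm, Gclc, Txnrd1, Srxn1 and Nqo1. Cat at 376 ± 56.2 TPM and Gstm1 at 317 ± 94.2 TPM (SD, n = 3) lay within their spread of each other, and both were far above Gsta4 at 55.4 ± 4.97 TPM and Gsta3 at 53.9 ± 18.6 TPM. From Hmox1 at 39.1 ± 11.4 TPM through Gclm and Gclc to Txnrd1 at 25.2 ± 3.19 TPM, each gene overlapped the next in the order, while every Hmox1 value was above every Txnrd1 value. Nqo1 was lowest at 5.94 ± 0.637 TPM (SD, n = 3). In Cebpa_ASKO the order by mean TPM was Gstm1, Cat, Gsta4, Hmox1, Gclm, Txnrd1, Gclc, Srxn1, Nqo1 and Gsta3, so Gsta3 passed from place 4 to place 10. The summed TPM of the 10 genes was 782, 1101 and 974 in Cebpa_fl/fl and 694, 743 and 708 in Cebpa_ASKO, without overlap (exact permutation p = 0.1, two-sided, the smallest that 3 against 3 can give).

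Gsta3, an alpha-class glutathione S-transferase, lies on chromosome 1 from 21240589 to 21265661 on the plus strand. It was at 33.2, 59.2 and 69.2 TPM in Cebpa_fl/fl and at 7.43, 7.85 and 5.08 TPM in Cebpa_ASKO. Every Cebpa_ASKO library was far below every control, and the lowest control was Cebpa_fl/fl 1, the library with the most lymphocyte marker RNA. The means were 53.9 ± 18.6 and 6.79 ± 1.49 TPM (SD, n = 3 each), so 12.6% of the control level remained. Gsta3 fell by 3.05 on the log2 scale (standard error 0.31, 95% interval from -3.79 to -2.30, adjusted p = 0.00345 from edgeR). It had 1355 to 2791 estimated counts in the control libraries and 173 to 239 in the Cebpa_ASKO libraries. Gsta3 was called in all 6 fits that left out 1 library, with log2 fold changes from -3.27 to -2.82. The fall was seen in both annotated transcripts that carried most of its signal, Gsta3-201 at 17.5, 31.3 and 37.7 TPM against 3.72, 3.80 and 2.50 TPM, and Gsta3-202 at 14.9, 26.1 and 28.6 TPM against 2.39, 3.09 and 2.04 TPM.

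Gsta4, the alpha-class enzyme known for conjugating 4-hydroxynonenal, a product of lipid peroxidation, lies on chromosome 9 from 78182774 to 78209349 on the plus strand. Its levels were 53.1, 52.0 and 61.1 TPM in Cebpa_fl/fl and 85.5, 85.5 and 62.0 TPM in Cebpa_ASKO. The groups were apart in TPM by a narrow margin, since Cebpa_ASKO 3 stood just above the highest control, and they overlapped in CPM, where Cebpa_ASKO 3 at 37.8 was below Cebpa_fl/fl 1 at 38.0 and Cebpa_fl/fl 3 at 40.9. The estimate for Gsta4 was a log2 fold change of 0.44 (95% interval from 0.00 to 0.87), and it did not pass the test (adjusted p = 0.250 from edgeR). Fits that left out 1 library gave 0.28 to 0.59 for Gsta4, with no call. The ratio of Gsta3 to Gsta4 in TPM was 0.626, 1.14 and 1.13 in the controls and 0.0870, 0.0918 and 0.0820 in Cebpa_ASKO, without overlap (exact permutation over 20 arrangements allows no p under 0.1).

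Together the 4 measured Gsta genes summed to 87.0, 112 and 131 TPM in Cebpa_fl/fl and to 94.0, 94.4 and 67.3 TPM in Cebpa_ASKO. These TPM sums overlapped (exact permutation p = 0.3, two-sided), while the CPM sums did not (exact permutation p = 0.1), and the log2 ratio of the means was -0.37 in TPM and -0.56 in CPM. Gsta3 supplied 38.2%, 52.9% and 52.9% of the Gsta TPM in the controls and 7.91%, 8.32% and 7.55% in Cebpa_ASKO. Its paralog Gsta2 stayed between 0.15 and 0.839 TPM in the 6 libraries, and Gsta1 between 0.0461 and 0.390 TPM, too low to be tested.

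Gstm1, a mu-class transferase, lies on chromosome 3 from 108012255 to 108017973 on the minus strand. Its levels were 236, 420 and 295 TPM in Cebpa_fl/fl and 250, 243 and 273 TPM in Cebpa_ASKO. In TPM the Cebpa_ASKO libraries lay inside the range of the controls, of which Cebpa_fl/fl 2 was far the highest. In CPM the groups also overlapped, but Cebpa_ASKO 2 at 204 and Cebpa_ASKO 3 at 223 were below the lowest control at 225. For Gstm1 the log2 fold change was -0.35 (95% interval from -0.79 to 0.09, adjusted p = 0.364 from edgeR), which is no call. Leaving out 1 library gave -0.49 to -0.15. Gstm1 supplied 54.2% to 60.1% of the TPM of the 7 Gstm genes in every library. Gstm7 was the 1 paralog that passed, at 6.19, 7.05 and 9.0 TPM against 2.87, 2.88 and 4.24 TPM (log2 fold change -1.27, adjusted p = 0.0185 from edgeR). The Gstm7 call was lost without Cebpa_ASKO 1 (adjusted p = 0.0938), Cebpa_ASKO 2 (0.0769) or Cebpa_fl/fl 3 (0.0527). Estimates for Gstm2, Gstm4, Gstm5 and Gstm6 were -0.56, -0.26, -0.07 and -0.48 on the log2 scale, none called by edgeR, though DESeq2 called Gstm2 (adjusted p = 0.0303, with a range up to 0.367 over the 17 alternatives), and Gstm3 did not exceed 0.0706 TPM and was not tested.

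Among all glutathione S-transferases, 26 of 27 listed genes were measured, Gsta13 being absent from the table, and 23 were tested. edgeR called 7 lower and 0 higher, with a median log2 fold change of -0.28, while 12 had an unadjusted p below 0.05 and DESeq2 called 8. Over all genes these shares were 5.23% called by edgeR, 19.8% with an unadjusted p below 0.05 and 10.2% called by DESeq2. The 26 genes summed to 3252, 4271 and 3759 TPM in Cebpa_fl/fl and to 2102, 2087 and 2268 TPM in Cebpa_ASKO, so the mean sum was 57.2% of the control. Mgst1, a membrane-bound transferase, was the most abundant at 1535, 2068 and 1674 TPM against 894, 831 and 887 TPM (log2 fold change -1.06, adjusted p = 0.00864 from edgeR). Gstz1, which also acts in tyrosine breakdown, fell from 483, 517 and 632 TPM to 64.4, 76.0 and 86.3 TPM (log2 fold change -2.87, adjusted p = 0.000299). Mgst2 and Mgst3 had log2 fold changes of -3.13 and -1.71, beside -3.05 for Gsta3, and Gsto1, named after its values were seen, had -0.73 (adjusted p = 0.0213). Gstm1 made up 7.25% to 9.84% of the transferase TPM in the controls and 11.6% to 12.03% in Cebpa_ASKO. Of the 7 calls, 4 were kept without Cebpa_ASKO 2, where Mgst1 had an adjusted p of 0.0567. Gsto1 was not called without Cebpa_ASKO 1 (adjusted p = 0.111), Cebpa_ASKO 2 (0.0959), Cebpa_fl/fl 1 (0.0732) or Cebpa_fl/fl 3 (0.0625).

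**Figure D2:**
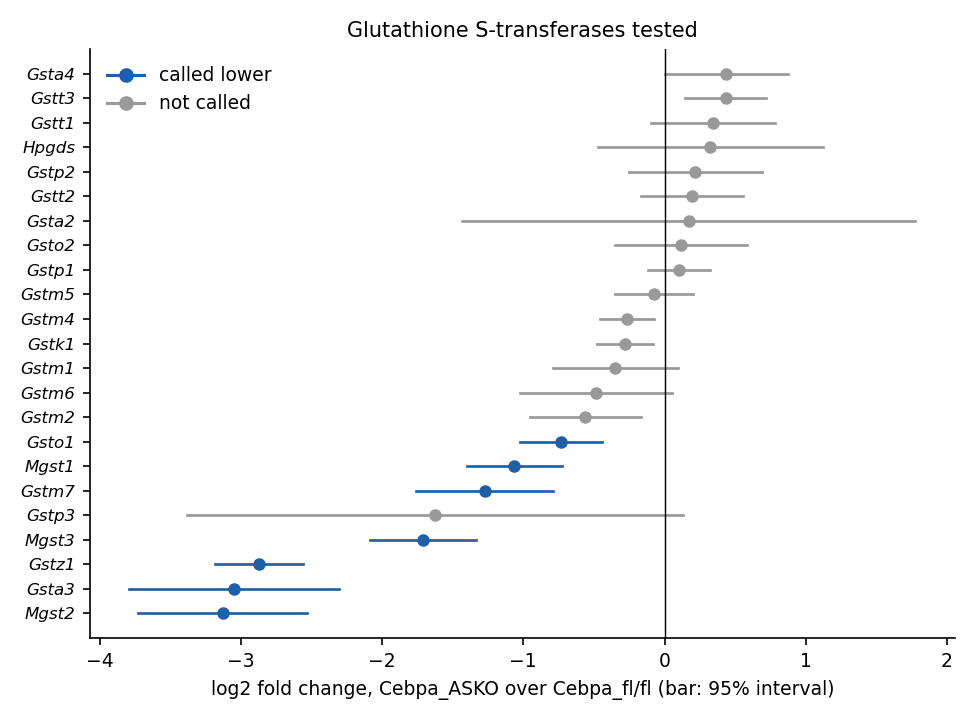
Log2 fold change of Cebpa_ASKO over Cebpa_fl/fl from edgeR for the 23 glutathione S-transferases tested, with the 95% interval as a bar, genes called lower in blue and the others in grey. The 7 called genes run from Gsto1 at -0.73 to Mgst2 at -3.13, and Gsta4 is at the top at 0.44.

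Cat, which encodes catalase, the peroxisomal enzyme that splits hydrogen peroxide, lies on chromosome 2 from 103453849 to 103485160 on the minus strand. It was at 318, 431 and 380 TPM in Cebpa_fl/fl and at 185, 210 and 176 TPM in Cebpa_ASKO. All 3 Cebpa_ASKO libraries were below all 3 controls with a wide gap. The means were 376 ± 56.2 and 190.5 ± 17.8 TPM (SD, n = 3 each), so 50.6% of the control level remained, on 12648 to 39606 estimated counts a library. Cat fell by 1.03 on the log2 scale (standard error 0.14, 95% interval from -1.37 to -0.70, adjusted p = 0.00986 from edgeR). Without Cebpa_ASKO 1 the adjusted p of Cat was 0.0543, so the call was lost, while 5 of the 6 fits that left out 1 library kept it, with log2 fold changes from -1.10 to -0.96. Over the 17 alternatives its adjusted p ran from 2.01e-12 to 0.134.

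Srxn1 encodes sulfiredoxin, which repairs overoxidised peroxiredoxins, and lies on chromosome 2 from 152105516 to 152111376 on the plus strand. Its levels were 17.7, 17.6 and 19.2 TPM in Cebpa_fl/fl and 28.2, 30.4 and 27.3 TPM in Cebpa_ASKO. The groups were apart by several times the spread within either, and no single library stood out. The means were 18.2 ± 0.923 and 28.6 ± 1.60 TPM (SD, n = 3 each). Srxn1 rose by 0.67 on the log2 scale (standard error 0.11, 95% interval from 0.41 to 0.94, adjusted p = 0.0211 from edgeR), a fold of 1.59 with an interval from 1.33 to 1.91. The call was lost without Cebpa_ASKO 1 (adjusted p = 0.0927), Cebpa_ASKO 2 (0.0824) or Cebpa_fl/fl 3 (0.0601), with log2 fold changes from 0.58 to 0.73 over the 6 fits that left out 1 library. Over the 17 alternatives its adjusted p ran from 8.65e-05 to 0.172. Its main transcript Srxn1-201 was at 16.3, 15.0 and 16.8 TPM in the controls and at 26.8, 27.5 and 26.0 TPM in Cebpa_ASKO.

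Txnrd1, cytosolic thioredoxin reductase, lies on chromosome 10 from 82833951 to 82897712 on the plus strand. Its levels were 25.7, 21.8 and 28.1 TPM in Cebpa_fl/fl and 32.9, 39.1 and 33.0 TPM in Cebpa_ASKO. Each Cebpa_ASKO library was above each control, and Cebpa_ASKO 2, the library with the most muscle marker RNA, was the highest. Cebpa_fl/fl 2, the control with the most muscle marker RNA, was the lowest. The means were 25.2 ± 3.19 and 35.0 ± 3.58 TPM (SD, n = 3 each). For Txnrd1 the log2 fold change was 0.38 (95% interval from 0.04 to 0.72, adjusted p = 0.205 from edgeR), so it was not called, and fits that left out 1 library gave 0.24 to 0.45. The transcript Txnrd1-201 carried 66.7% to 75.2% of its TPM in every library. The paralogs Txnrd2 and Txnrd3 had log2 fold changes of 0.15 and -0.25 without a call (adjusted p = 0.745 and 0.287 from edgeR).

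Glutathione is made from glutamate and cysteine by glutamate-cysteine ligase, with Gclc as the catalytic and Gclm as the modifier subunit. Gclc, on chromosome 9 from 77754535 to 77794485 on the plus strand, was at 30.7, 17.4 and 43.5 TPM in Cebpa_fl/fl and at 27.6, 34.0 and 28.0 TPM in Cebpa_ASKO. In TPM and in CPM the Cebpa_ASKO libraries lay inside the control range, and Cebpa_fl/fl 2 and Cebpa_fl/fl 3 were the lowest and the highest of the 6. Its log2 fold change was -0.11 (95% interval from -0.87 to 0.66, adjusted p = 0.906 from edgeR), and leaving out 1 library moved it from -0.42 to 0.22, so no direction can be given. Gclm, on chromosome 3 from 122245557 to 122270732 on the plus strand, was at 26.1, 24.3 and 41.4 TPM in Cebpa_fl/fl and at 31.9, 45.3 and 33.0 TPM in Cebpa_ASKO. Its groups overlapped too, with Cebpa_fl/fl 3 the high control. The Gclm estimate was 0.10 on the log2 scale (95% interval from -0.42 to 0.62, adjusted p = 0.861 from edgeR), and it ran from -0.09 to 0.30 when 1 library was left out. The Gclc to Gclm ratio in TPM was 1.18, 0.716 and 1.05 in the controls and 0.865, 0.751 and 0.849 in Cebpa_ASKO, again overlapping. A processed pseudogene on the same strand within the Gclm locus, Gm6061, was at 8.91 to 16.7 TPM.

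Nqo1 encodes a quinone reductase and lies on chromosome 8 from 107388225 to 107403206 on the minus strand. It was at 5.36, 5.84 and 6.62 TPM in Cebpa_fl/fl and at 7.39, 10.2 and 7.87 TPM in Cebpa_ASKO. The groups did not overlap, and Cebpa_ASKO 2 was highest. The means were 5.94 ± 0.637 and 8.50 ± 1.51 TPM (SD, n = 3 each), on 286 to 430 estimated counts a library. For Nqo1 the log2 fold change was 0.45 (95% interval from 0.07 to 0.83, adjusted p = 0.180 from edgeR), which was no call, with 0.32 to 0.53 when 1 library was left out. Its paralog Nqo2 had a log2 fold change of 0.12 (adjusted p = 0.696).

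Hmox1, heme oxygenase, opens the heme ring and is abundant in macrophages, and it lies on chromosome 8 from 75093621 to 75100589 on the plus strand. Its levels were 35.6, 51.9 and 29.9 TPM in Cebpa_fl/fl and 39.0, 37.3 and 62.1 TPM in Cebpa_ASKO. The groups overlapped, and the highest library of each genotype, Cebpa_fl/fl 2 and Cebpa_ASKO 3, was also the highest of its genotype in summed macrophage markers, whose part in the Hmox1 level was not tested. For Hmox1 the log2 fold change was 0.17 (95% interval from -0.40 to 0.74, adjusted p = 0.777 from edgeR), and it ran from -0.07 to 0.36 when 1 library was left out. The paralog Hmox2 had a log2 fold change of 0.05 (adjusted p = 0.871).

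Of 21 genes of glutathione synthesis, recycling and turnover, all tested, edgeR called 1 higher and 1 lower, with a median log2 fold change of 0.01, and 7 had an unadjusted p below 0.05 and DESeq2 called 4. These counts and those of the lists that follow stand beside 5.23% of all genes called by edgeR, 19.8% with an unadjusted p below 0.05 and 10.2% called by DESeq2. Glrx3, an iron-sulfur glutaredoxin and the most abundant of them, was at 142, 150 and 156 TPM in Cebpa_fl/fl and at 96.3, 98.0 and 101 TPM in Cebpa_ASKO (log2 fold change -0.66, adjusted p = 0.0107), and without Cebpa_ASKO 2 its adjusted p was 0.0592. Ggt6, a gamma-glutamyltransferase, was at 0.778, 0.595 and 0.823 TPM and at 3.20, 3.48 and 1.88 TPM (log2 fold change 2.19, adjusted p = 0.0158), and its call was lost without Cebpa_ASKO 1 (0.0787), Cebpa_ASKO 2 (0.0685) or Cebpa_fl/fl 1 (0.0536). Glutathione synthetase, Gss, which follows Gclc and Gclm in the pathway and was named after its values were seen, was at 14.0, 13.5 and 13.3 TPM against 24.9, 24.9 and 19.5 TPM, with a log2 fold change of 0.70 and no call (adjusted p = 0.0523 from edgeR). Gss was called in 6 of the 17 alternatives, DESeq2 and the fit without Cebpa_ASKO 3 (adjusted p = 0.0192) among them, with adjusted p from 0.00354 to 0.301 over the 17. Of 8 glutathione peroxidases, 6 were tested and Gpx8 fell from 176, 198 and 196 TPM to 76.5, 83.9 and 106 TPM (log2 fold change -1.16, adjusted p = 0.00223). Of these peroxidases 2 had an unadjusted p below 0.05 and DESeq2 called 1. Gpx3, the most abundant peroxidase by mean TPM in Cebpa_fl/fl, was at 1863, 2407 and 2625 TPM against 1256, 967 and 3428 TPM. In Cebpa_ASKO the highest mean was that of Gpx4, at 1458, 1264 and 1458 TPM against 2637, 2379 and 1763 TPM. Gpx4 was not called (log2 fold change 0.65, adjusted p = 0.191 from edgeR). Gpx5 and Gpx6 were at 0 in every library.

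Of the 21 thioredoxin, peroxiredoxin and related genes, all tested, edgeR called Srxn1 higher and Msrb1 and Sesn2 lower, with a median log2 fold change of 0.01, and 7 had an unadjusted p below 0.05 and DESeq2 called 5. Msrb1, a methionine sulfoxide reductase, had a log2 fold change of -0.66 (adjusted p = 0.00828, or 0.0579 without Cebpa_ASKO 1). Sesn2 had -0.86 (adjusted p = 0.0295) and was called in 1 of the 6 fits that left out 1 library, the fit without Cebpa_fl/fl 2, with adjusted p from 0.0535 to 0.111 in the others. Of the 3 calls, 0 were kept without Cebpa_ASKO 1, 1 without Cebpa_ASKO 2 and 1 without Cebpa_fl/fl 3. Txnip, an inhibitor of thioredoxin, was the most abundant at 495, 672 and 590 TPM against 818, 740 and 899 TPM, not called by edgeR but called by DESeq2 (adjusted p = 0.0449, with a range up to 0.645 over the 17 alternatives). Among 5 catalase and superoxide dismutase genes, Cat was the 1 call, and Sod1, the most abundant, was at 1338, 1523 and 1513 TPM against 1174, 1118 and 1077 TPM (log2 fold change -0.42, adjusted p = 0.131 from edgeR, and from 0.00912 with DESeq2 to 0.601 over the 17 alternatives). Without Cebpa_ASKO 1 this list had 0 calls by edgeR, where with all libraries 3 of the 5 had an unadjusted p below 0.05 and DESeq2 called 2.

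Cat shares its organelle with 34 other genes of a 35-gene peroxisome list. All 35 were tested, and edgeR called 12 lower and 0 higher, with 29 estimates lower, a median log2 fold change of -0.43, 25 genes with an unadjusted p below 0.05 and 18 called by DESeq2. The list summed to 2875, 3049 and 3240 TPM in Cebpa_fl/fl and to 2096, 2214 and 2073 TPM in Cebpa_ASKO, without overlap. Abcd2, a transporter of very long chain fatty acids, fell from 55.5, 90.3 and 86.7 TPM to 2.70, 4.32 and 3.21 TPM (log2 fold change -4.62, adjusted p = 0.000291). The membrane protein genes Pxmp2, Pex16 and Pxmp4 had log2 fold changes of -2.51, -1.96 and -0.92, against -1.03 for Cat, and Pex6 had -0.59 (adjusted p = 0.00619). Scp2, the most abundant, was at 809, 930 and 903 TPM and at 487, 526 and 493 TPM (log2 fold change -0.79, adjusted p = 0.0142), and was not called without Cebpa_ASKO 1 (0.0504), Cebpa_ASKO 2 (0.0764) or Cebpa_fl/fl 1 (0.0556). Of the 12 calls, 5 were kept without Cebpa_ASKO 1, 6 without Cebpa_ASKO 2, 6 without Cebpa_fl/fl 1 and 8 without Cebpa_fl/fl 3. Without Cebpa_ASKO 3 this list had 10 genes called lower and 1 called higher.

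**Figure D3:**
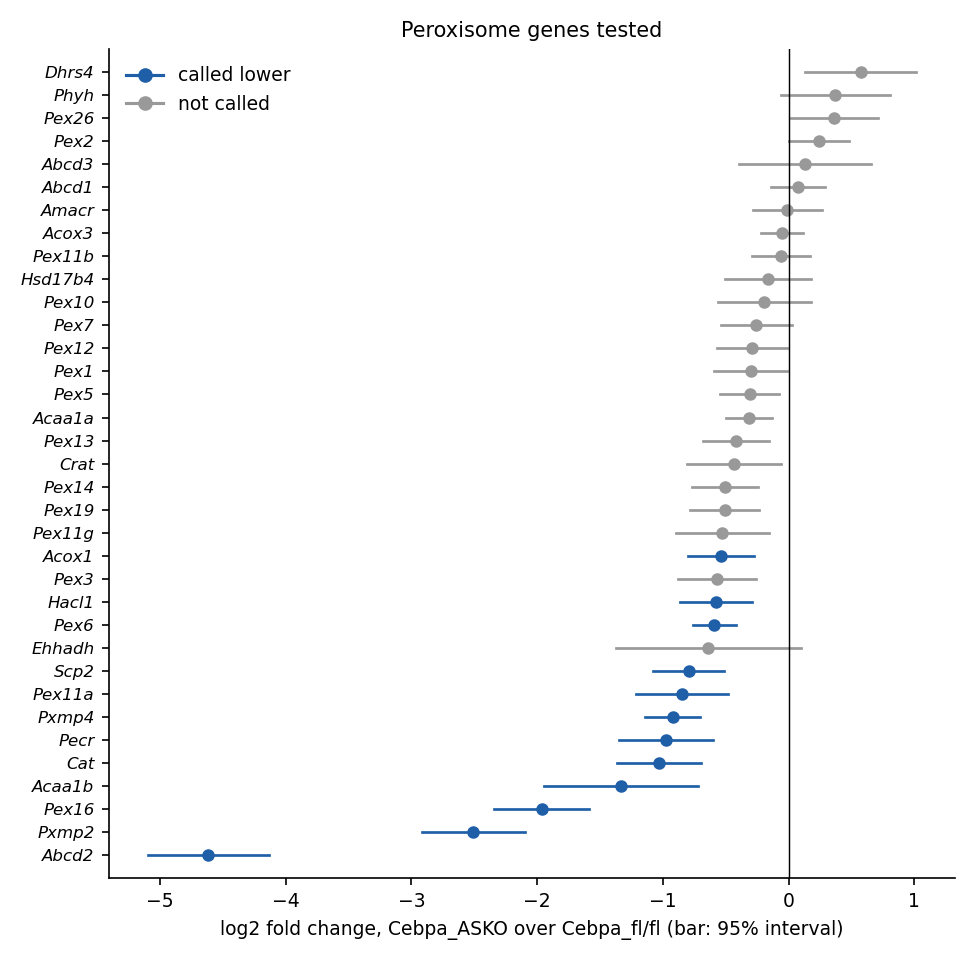
Log2 fold change of Cebpa_ASKO over Cebpa_fl/fl from edgeR for the 35 peroxisome genes, with the 95% interval as a bar, genes called lower in blue and the others in grey. Of these genes 29 lie below 0, from Abcd2 at -4.62 upward, and Cat is at -1.03.

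No gene of NRF2 or its partners passed the test. Nfe2l2, the gene of NRF2, was at 42.6, 51.8 and 43.4 TPM in Cebpa_fl/fl and at 50.4, 58.2 and 56.3 TPM in Cebpa_ASKO (log2 fold change 0.20, adjusted p = 0.247 from edgeR), and the genotypes overlapped in TPM through Cebpa_fl/fl 2 but not in CPM, where the controls reached 94.3 and Cebpa_ASKO began at 97.5. Keap1 was at 23.0, 28.4 and 23.7 TPM and at 22.3, 26.8 and 30.2 TPM (log2 fold change 0.03, adjusted p = 0.876), and Bach1, a repressor at the same elements, had a log2 fold change of 0.04 (adjusted p = 0.918). edgeR called 0 of the 12 genes of this list, DESeq2 also called 0, and 3 had an unadjusted p below 0.05, where 19.8% of all genes did, with a median log2 fold change of 0.17. The most abundant of them, Sqstm1, was at 164, 194 and 174 TPM against 211, 218 and 190.4 TPM. Of 36 other genes known as NRF2 targets, 34 were tested and 2 were called, both higher, where 5.23% of all genes were called, with a median log2 fold change of 0.10 and Ugt2b5 at 0 in every library. DESeq2 called 7 of them, against 10.2% of all genes, and 12 had an unadjusted p below 0.05, against 19.8%. Without Cebpa_fl/fl 2 edgeR called 6 of this list, and without Cebpa_ASKO 3 it called 3. The edgeR calls were Abcc4, an exporter, at 2.82, 2.94 and 3.61 TPM against 4.96, 5.12 and 5.31 TPM (log2 fold change 0.66, adjusted p = 0.00988) and Trim16 (log2 fold change 0.73, adjusted p = 0.0322). Abcc4 was not called without Cebpa_ASKO 1 (adjusted p = 0.0656), nor Trim16 without Cebpa_ASKO 1 (0.139), Cebpa_ASKO 2 (0.138), Cebpa_fl/fl 1 (0.110) or Cebpa_fl/fl 3 (0.0923). Among the 10 antioxidant and glutathione genes, the estimates lay in both directions, from 0.67 for Srxn1 to -3.05 for Gsta3. A part of NRF2 in them was not tested.

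Of 14 genes of heme breakdown and iron storage, Hmox1 included, Hp, whose product haptoglobin binds hemoglobin, was the 1 call, falling from 375, 532 and 465 TPM to 66.0, 60.6 and 46.5 TPM (log2 fold change -3.04, adjusted p = 0.000859 from edgeR). The list median was 0.04, with 5 genes at an unadjusted p below 0.05, where 19.8% of all genes were, and 3 called by DESeq2. Fth1, the most abundant gene of this list and of the NRF2 targets, was at 2315, 3014 and 2120 TPM against 2466, 2519 and 2827 TPM. Of 20 oxidant source genes, 16 were tested and Nos3 was the 1 call (log2 fold change -2.08, adjusted p = 0.0061), with a median of -0.06, 3 genes at an unadjusted p below 0.05, 2 called by DESeq2, Nox3 at 0 in every library and Cyba the most abundant at 54.2 to 139.6 TPM. Of 4 metallothionein genes, 3 were tested and 0 called by edgeR or DESeq2, 1 having an unadjusted p below 0.05, with a median of -0.08 and Mt1 the most abundant at 182 to 228 TPM.

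NADPH is the reductant behind Txnrd1, Nqo1 and glutathione recycling. Of 16 NADPH supply genes, all tested, edgeR called 2 higher and 2 lower, with a median log2 fold change of -0.18, and 8 had an unadjusted p below 0.05 and DESeq2 called 8. Aldh1l1 of folate metabolism fell from 64.1, 59.5 and 93.4 TPM to 9.67, 11.5 and 15.4 TPM (log2 fold change -2.64, adjusted p = 0.00169). Idh1 had -1.11 (adjusted p = 0.0101), Me3 had 1.63 (0.0332) and Idh2 had 0.73 (0.0491). Of these 4 calls, 1 was kept without Cebpa_ASKO 1 and 1 without Cebpa_ASKO 2, Aldh1l1 in each case, and 2 without Cebpa_fl/fl 2 and 2 without Cebpa_fl/fl 3. Where a call was lost, the adjusted p was 0.0597 or 0.0640 for Idh1, from 0.0526 to 0.138 for Me3 and from 0.0856 to 0.178 for Idh2. Tkt, the most abundant, was at 1107, 484 and 1827 TPM against 1499.6, 1334 and 1183 TPM. The summed TPM of the list was 3175, 1962 and 4728 in the controls and 3005, 2775 and 2610 in Cebpa_ASKO. Among the controls the sum was lowest in Cebpa_fl/fl 2 and highest in Cebpa_fl/fl 3, as Gclc was. In Cebpa_ASKO it was highest in Cebpa_ASKO 1, where Gclc was lowest in TPM. A link between the sum and Gclc was not tested.

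Lipid aldehydes are cleared by Gsta4 and by dehydrogenases and reductases. Of 14 such genes, Gsta4 included and all tested, edgeR called 3 lower and 0 higher, with a median log2 fold change of -0.03, 6 genes with an unadjusted p below 0.05 and 4 called by DESeq2. Akr1b3 had a log2 fold change of -0.58 (adjusted p = 0.00883), Aldh2, the most abundant at 787, 999.9 and 959 TPM against 527, 547 and 607 TPM, had -0.78 (0.0183), and Aldh9a1 had -0.37 (0.0446). Akr1b3 was not called without Cebpa_ASKO 1 (adjusted p = 0.0577) or Cebpa_ASKO 2 (0.0570), nor Aldh2 without Cebpa_ASKO 1 (0.0941), Cebpa_ASKO 2 (0.0958) or Cebpa_fl/fl 3 (0.0545). Aldh9a1 was called in 0 of the 6 edgeR fits that left out 1 library, with adjusted p from 0.0590 to 0.157.

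Promoter windows reach from 250 bases before to 50 after a gene start in RefSeq on GRCm38.p6. Of the 10 genes, 7 were in the table of windows, with 10 windows, of 32851 windows for 27025 symbols. The window table used here held none for Hmox1, Gclc and Gsta4. Both strands were searched for 4 motifs, and no match overlapped another. The core of the antioxidant response element, TGACNNNGC, was in 12.4% of all windows and in windows of 4 genes, Gclm, Txnrd1, Srxn1 and Gsta3. A share of windows and a count of genes are unlike measures, since a gene can have several windows. Txnrd1 had several, and not all of them held the core. The AP-1 motif, TGANTCA, was in 7.81% of all windows and in that of Srxn1, which held 2 copies. A C/EBP motif, TTGNNCAA, was in 6.4% of all windows and the C/EBP-ATF motif, TGATGCAA, in 0.895%, and neither was in a window of these genes.

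The stretches around matches before the gene start are printed for the 2 called genes with a match, Srxn1 and Gsta3, and for Gclm and Txnrd1, which share the core with them. Bases are on the plus strand, which is the strand of all 4 genes, and capitals mark AP-1 matches in Srxn1 and the antioxidant response element core in the others, read on the minus strand in Gclm and Txnrd1. The positions are chr2:152105382-152105513 for Srxn1, chr1:21240424-21240512 for Gsta3, chr3:122245383-122245471 for Gclm and chr10:82859074-82859162 for Txnrd1.
Srxn1: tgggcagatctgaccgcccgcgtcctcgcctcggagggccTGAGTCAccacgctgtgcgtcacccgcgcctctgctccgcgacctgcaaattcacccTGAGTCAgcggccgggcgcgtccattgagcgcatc
Gsta3: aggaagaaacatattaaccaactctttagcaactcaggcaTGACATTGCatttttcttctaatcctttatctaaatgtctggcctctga
Gclm: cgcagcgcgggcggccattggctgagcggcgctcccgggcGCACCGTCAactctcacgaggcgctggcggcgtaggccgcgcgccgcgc
Txnrd1: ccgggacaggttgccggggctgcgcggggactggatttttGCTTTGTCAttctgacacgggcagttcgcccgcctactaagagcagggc
The core began 121 bases before the start in Gsta3, 134 before it in Gclm and 92 before it in the Txnrd1 window, and the Srxn1 core lay 28 to 36 bases after the start. With the gc after it, the second AP-1 match of Srxn1 reads TGAGTCAGC, which has G where the searched core TGACNNNGC has C and otherwise fits it. Other forms of the antioxidant response element were not searched. Srxn1, which rose, and Gsta3, which fell, both hold the core letters. A match in letters is a description of the window, and its part in the changes was not tested.

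Cell markers moved in several directions beside these genes, and except for the fits without single libraries given above, their part in the results was not tested. Of 14 adipocyte markers, all tested, edgeR called 8 lower and 0 higher, with a median log2 fold change of -0.99, 11 genes with an unadjusted p below 0.05 and 11 called by DESeq2. They summed to 49449.5, 69440.1 and 60228 TPM in Cebpa_fl/fl and to 16014, 15548 and 16758 TPM in Cebpa_ASKO. By mean TPM the most abundant was Cfd in Cebpa_fl/fl, at 25587 TPM. In Cebpa_ASKO it was Fabp4, at 7612 TPM against 2843 TPM for Cfd. None of the 14 markers was at 0. Of the 8 calls, 5 were kept without Cebpa_ASKO 1 and 6 without Cebpa_ASKO 2. Gsta3 and Cat fell beside these markers, and Srxn1 rose. The 15 skeletal muscle markers had 11 called higher by edgeR, 11 called by DESeq2, 11 with an unadjusted p below 0.05 and a median of 2.12, with Ckm the most abundant at 77.2, 124 and 71.9 TPM against 383, 851 and 305 TPM, and of the 11 calls 7 were kept without Cebpa_ASKO 2 and 1 each without Cebpa_ASKO 1, Cebpa_fl/fl 1 or Cebpa_fl/fl 3. Txnrd1, Nqo1 and Gclm were highest in Cebpa_ASKO 2 in TPM and in CPM, as the muscle sum was in TPM. Srxn1 was highest there in TPM, but in CPM it was highest in Cebpa_ASKO 1, at 63.2 against 57.2 in Cebpa_ASKO 2 and 52.6 in Cebpa_ASKO 3. Among the controls the muscle sum was highest in Cebpa_fl/fl 2, where Txnrd1 and Gclm were lowest in TPM and in CPM.

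Of the 15 macrophage markers edgeR called 0, DESeq2 0, and 1 had an unadjusted p below 0.05, with a median of 0.12 and Lyz2 the most abundant. For 12 fibroblast and progenitor markers these counts were 0, 0 and 0, with a median of 0.14, 2 calls without Cebpa_fl/fl 2, sums of 3454, 6696 and 3436 TPM against 4684, 5066 and 6509.6 TPM, and Dcn the most abundant. The 14 lymphocyte markers had 12 tested and 0 called by edgeR, 2 by DESeq2 and 8 with an unadjusted p below 0.05, with a median of -2.90 and Ighm the most abundant. Of 15 mammary epithelium markers, 14 were tested and 12 had higher estimates, with a median of 0.74, and 11 had an unadjusted p below 0.05. DESeq2 called 7 of them and edgeR called 1, Esr1 as lower, or 2 others without Cebpa_fl/fl 3, with sums of 1095, 829 and 1729 TPM against 2229, 2439.8 and 2521 TPM, and Krt19 the most abundant. The 10 endothelial markers had 2 called lower by edgeR, Emcn and Cldn5, 4 called by DESeq2, 5 with an unadjusted p below 0.05, a median of -0.42, sums of 222, 264 and 270.5 TPM against 167, 159 and 233 TPM, and Egfl7 as the most abundant. The calls of Esr1, Emcn and Cldn5 were each lost without Cebpa_ASKO 1 (adjusted p = 0.179, 0.148 and 0.166) and without Cebpa_fl/fl 2 or Cebpa_fl/fl 3, and of the 6 fits that left out 1 library they were called in 1, 1 and 2.

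Of 7 erythroid markers, 5 were tested, 0 were called by edgeR and 4 by DESeq2, 5 had an unadjusted p below 0.05, the median was -0.86, 1 was called without Cebpa_fl/fl 3, the sums were 1819, 2978 and 1533 TPM against 1249.8, 1196 and 1075 TPM, and Hbb-bs was the most abundant. Of 8 Schwann cell and nerve markers, S100b and Ncmap were called higher by edgeR, 3 were called by DESeq2 and 3 had an unadjusted p below 0.05, with a median of 0.32, sums of 207, 275 and 195 TPM against 381, 349.5 and 341 TPM, and Pmp22 the most abundant, and neither call was kept without Cebpa_ASKO 1, Cebpa_ASKO 2 or Cebpa_fl/fl 3 (adjusted p from 0.0539 to 0.128). Of 10 hepatocyte markers, 5 were tested and Hpd, Serpina1a and Alb were called lower by edgeR, 4 were called by DESeq2 and 4 had an unadjusted p below 0.05, with sums of 22.0, 31.9 and 28.3 TPM against 7.67, 13.0 and 1.85 TPM, Alb the most abundant, Cyp3a11 at 0 in all libraries and Hpd and Serpina1a at 0 in Cebpa_ASKO, and 1 of the 3 calls was kept without Cebpa_fl/fl 1 or without Cebpa_fl/fl 3. Of 7 keratinocyte markers, 3 were tested, 0 were called by edgeR or DESeq2 and 1 had an unadjusted p below 0.05, with a median of 0.23, sums of 8.96, 15.5 and 8.06 TPM against 11.3, 11.7 and 19.7 TPM, and Krt10 the most abundant.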

How the data were processed

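Poly-A RNA-seq of whole iWAT from 3 Cebpa_fl/fl and 3 Cebpa_ASKO mice was analysed. The authors deposited estimated counts for every transcript and gene TPM values, made with kallisto 0.44.0, as the submitters' processing notes state, and the notes list GRCm38.p6 and GRCh38.p12 without giving a role and name no annotation release. Estimated counts were summed by GENCODE M21 gene symbol (98.6% of transcripts matched) and rounded to whole numbers. Tests used edgeR 4.0.16 (quasi-likelihood, TMM scaling, default filter, Benjamini-Hochberg adjustment) in R 4.3.3. Sums were compared by an exact permutation test. The 10 genes and all lists were chosen with earlier results of these data known. Named genes are these 10, Cebpa, each list's called genes (at most 6, by p), its most abundant gene, paralogs of the 10, and Nfe2l2, Keap1 and Bach1. Gpx4 and Fabp4 were named after their values were seen. Alternatives used DESeq2 1.42.0, limma 3.58.1 on log2 TPM, other scalings and filters, the replicate number as a block, and each library left out. The fit without 2 libraries was chosen after seeing the data. The procedure was tested on simulated counts drawn with edgeR's own dispersions and no shift in cell types, so that test does not cover such shifts. For 5 listed genes (Gstp1, Gstp2, Gstp3, Txnrd2 and Nadk2) the summed counts covered part of the deposited TPM.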

Additional observations from a re-analysis of the deposited data

How the results depend on the processing

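Limits apply throughout. With 3 mice a genotype, leaving out 1 library removes many calls. The printed intervals come from edgeR's fit and rest on the spread between 3 mice a genotype. The replicate numbers share only a number, and a block on them costs degrees of freedom. The fit without Cebpa_fl/fl 1 and Cebpa_ASKO 2, the 2 against 2 fit, was chosen after seeing the data. Causes of the changes listed were not tested.

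Genes called were 840, and became 1802 with DESeq2, 370 with the replicate block, 359 with limma on log2(TPM + 1) without a filter, 495 when calls also needed a log2 fold change of 1 or more in size, 155 with 2 against 2, and 311 to 922 when 1 library was left out. Members called, 3 of 10, were 1 with the replicate block, 1 with 2 against 2, and 1 to 3 when 1 library was left out. Glutathione S-transferases called, 7, were 4 with limma without a filter, 4 with 2 against 2, and 4 to 7 when 1 library was left out. Peroxisome genes called, 12, were 5 with the replicate block, 5 with limma without a filter, 2 with 2 against 2, and 5 to 15 when 1 library was left out.

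Srxn1 log2 fold change was 0.67 with the replicate block (adjusted p = 0.0664), 0.73 with 2 against 2 (0.172), and 0.58 to 0.73 when 1 library was left out. Cat log2 fold change was -1.04 with the replicate block (adjusted p = 0.0608), -1.15 with 2 against 2 (0.134), and -1.10 to -0.96 when 1 library was left out. Gsta3 was called in all 17 alternatives, with log2 fold changes from -3.35 to -2.77, and Nqo1, Txnrd1, Gsta4 and Gstm1 kept their direction in all 17 with no call.

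Direction was not kept for these uncalled genes. Hmox1 log2 fold change ran from -0.0699 to 0.36 when 1 library was left out. Gclc log2 fold change was 0.0583 in the limma fit with a pseudocount of 0.1 and 0.0535 in those with a pseudocount of 1, and -0.42 to 0.22 when 1 library was left out. Gclm log2 fold change was -0.13 with 2 against 2 and -0.0898 to 0.30 when 1 library was left out. Gsta2 log2 fold change was -0.0187 with a transcript length offset, -0.0306 with limma without a filter, and -0.31 to 0.65 when 1 library was left out. Fth1 log2 fold change was -0.0006 with DESeq2 and with its size factors, -0.0036 with at least 10 counts in every library, and -0.0917 to 0.12 when 1 library was left out. Cyba log2 fold change was 0.11 with 2 against 2, and -0.43 to 0.11 when 1 library was left out. Lyz2 log2 fold change was 0.0816 with the replicate block, 0.0046 with total counts and 0.14 in all 3 limma fits, and -0.32 to 0.39 when 1 library was left out. When 1 library was left out, the log2 fold change of Txnrd2 ran from -0.0099 to 0.26, of Hmox2 from -0.0284 to 0.13, of Nqo2 from -0.0485 to 0.19, of Keap1 from -0.0192 to 0.0618, of Bach1 from -0.0794 to 0.13 and of Tkt from -0.24 to 0.65.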
